A study of Danio rerio with 6 samples.

Results

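Of the 6378 regions bound by Eomesodermin a (Eomesa) in zebrafish blastulas, 319 were clear Eomesa peaks picked for a low Smad2 signal. That signal was not absent there but stood at 1.10 times its genome-wide mean. They were chosen by 4 measured limits. A peak had to share no base with any of the 898 Smad2 peaks, be at least 100 bp wide, reach 14 to 43 tags in the Eomesa track and reach no more than 3 tags in the Smad2 track. Of all Eomesa peaks, 6019 shared no base with a Smad2 peak (lone peaks), 5269 of these were wide enough, 2742 of those lay in the Eomesa window, and 319 (11.6% of the 2742) also met the Smad2 limit. The heights, the widths and the lack of a Smad2 peak therefore describe how the peaks were picked and are not findings.

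The data come from chromatin immunoprecipitation with sequencing (ChIP-seq) on wild-type AB embryos at high-sphere stage, within the blastula period, fixed in formaldehyde. There were 3 groups of 2 libraries each, namely Smad2 (rabbit monoclonal antibody), Eomesa (polyclonal antibody) and input, the chromatin that was not precipitated. Each of the 3 groups was deposited as 1 genome-wide track, so no value below has a replicate error, and the intervals given cover counting error only. Whole embryos were used, so the values are averages over all cells of the blastula.

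Eomesa is a T-box transcription factor that the zebrafish mother supplies to the egg. Smad2 is the effector of Nodal signalling, which instructs cells to become mesoderm and endoderm, and it is brought to DNA by partners such as Foxh1. T-box factors and Smad2 can act at the same elements. Eomesa bound alone is studied both as an activator and for its part in keeping ectodermal and neural genes in check. The question of binding without Smad2 arises at all lone peaks, and the 319 peaks are those that the limits above cut out. Their Eomesa window starts at 14 tags, the median height of all Eomesa peaks.

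The DNA under some of these peaks can be shown through the Foxh1 site, since Foxh1 is the Smad2 partner most tied to Nodal targets. The annotation of Eomesa peaks was readable for 1998 of them, which lie on 9 chromosomes, and it lists an 11-base Foxh1 match where the peak has one. Of the 319 peaks 89 fell in this part. In the sequences that follow, capitals mark the bases that equal AATNCACA (N being any base, left in lower case) at positions 4 to 11 of the match, read as listed. The case used in the annotation is not kept. It listed the matches of Eomesa_peak753, Eomesa_peak1141, Eomesa_peak1902 and Eomesa_peak1443 wholly in lower case, unlike the others shown, and what this stands for was not examined. The first 4 are the only matches at these peaks that carry all 7 fixed bases, and the next 3 are those at the tallest peaks among the rest.
Eomesa_peak753 (chr12:9862456-9862760): caaAATaCACA
Eomesa_peak1141 (chr13:40380027-40380200): cacAATcCACA
Eomesa_peak1678 (chr16:12734949-12735249): gtgAATtCACA
Eomesa_peak1902 (chr17:10577926-10578305): aatAATcCACA
Eomesa_peak457 (chr10:42114213-42114395): taaAgTcCACA
Eomesa_peak1443 (chr15:5611226-5611428): agcAgTcCACA
Eomesa_peak958 (chr13:9659093-9659469): taaAtTaCACA
For comparison, 3 Eomesa peaks of the same width and Eomesa window that shared a base with a Smad2 peak are shown, near the notochord gene flh, the organizer gene lhx1a and the Nodal antagonist lft2. All 3 are examples that carry all 7 fixed bases, as did 24 of the 46 matches at such peaks.
Eomesa_peak984 (chr13:14830671-14831053): ctcAATaCACA
Eomesa_peak1556 (chr15:27058067-27058653): cacAATaCACA
Eomesa_peak1892 (chr17:8154943-8155356): tccAATcCACA
All coordinates are of the Zv9 build.

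A Foxh1 match was listed at 16 of the 89 readable peaks (18.0%, 95% Wilson interval 11.4 to 27.2%), against 24.6% of all 1998 readable Eomesa peaks. With a Smad2 limit of 2 tags instead of 3 it was 9.76%. In lone peaks of the same window with 4 or more Smad2 tags the share was 29.1% (228 of 784, interval 26.01 to 32.4%). In peaks of the window that shared a base with a Smad2 peak, called common peaks here, it was 64.8% (46 of 71, interval 53.2 to 74.9%). The interval of the 89 peaks overlaps that of the other lone peaks slightly and lies wholly below that of the common peaks. A match that carries all of AATNCACA stood at 4 of the 89 (4.49%), where 9.86% of all readable peaks had one. It stood at 11.5% of the other lone peaks (90 of 784) and at 33.8% of the common peaks (24 of 71). Longer intervals hold more bases in which a match can occur. Among intervals of 200 to 400 bp the shares were 20.3% of 59 (interval 12.0 to 32.3%), 25.1% of 438 and 69.0% of 29. The share of all readable Eomesa peaks of these widths, 25.7%, lies within the interval of the members. The gap to the common peaks was thus as large at matched width. That to the other lone peaks was smaller, and their intervals overlap.

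Within the chosen window the heights spread widely. Eomesa heights are not on the same scale as Smad2 and input heights, since an Eomesa tag covers 39.0 bp and the others 132 bp. Eomesa heights ran from 14 to 43 tags with a median of 19 and quartiles of 16 and 23.5, and 36 peaks reached 30 tags or more. The Smad2 height was 3 tags at 161 peaks, 2 at 98, 1 at 46 and 0 at 14. The limits cut a continuous range. Another 185 lone peaks of the window had 4 Smad2 tags, just outside the limit, and at 3 tags or fewer there were 40 peaks with an Eomesa height of 14 tags and 43 with 13. Above the upper limit only 7 further peaks met the Smad2 limit. At the lower width limit 10 peaks were under 110 bp wide, and 7 peaks of 90 to 99 bp met the other limits. Smad2 heights of at most 3 tags were found at 17.5% of all Eomesa peaks.

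**Figure D1:**
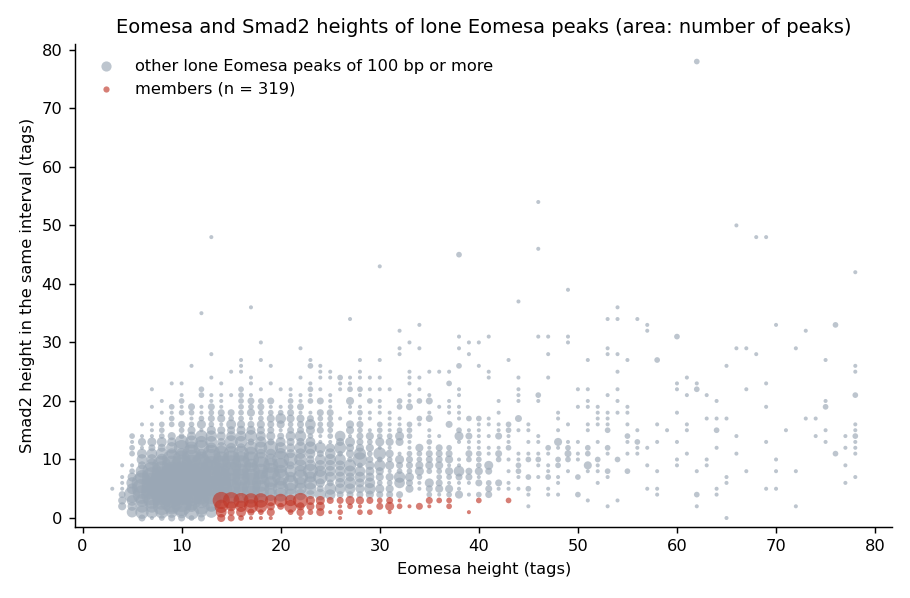
Highest Smad2 value (tags, vertical axis) against highest Eomesa value (tags, horizontal axis) for lone Eomesa peaks of 100 bp or more, with the area of each point in proportion to the number of peaks. The 319 members form the lower band between 14 and 43 Eomesa tags, with the other lone peaks directly above it and to its left and no gap between them.

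Peaks with fewer Smad2 tags were narrower, with a median width of 166.5 bp at 0 tags, 179.5 bp at 1, 230 bp at 2 and 266 bp at 3. Input was lower at 0 and 1 Smad2 tags, with a median height of 2.5 and 3.5 tags, against 5 at both 2 and 3. Averaged over the bases, input was 0.935, 1.49, 1.89 and 1.80 times its genome-wide mean at 0, 1, 2 and 3 Smad2 tags. The highest value is read over more bases in a wider interval, so width is linked to Smad2 height and to input height by the way they are read. Among lone peaks of the window, members made up 41.3% of those 100 to 149 bp wide (50 of 121), 18.1% of those 200 to 299 bp wide (130 of 718) and 2.08% of those of 400 bp or more (18 of 865).

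The 5 tallest of the 319 peaks differed in form. Eomesa_peak3121 (chr21:2721214-2721325) reached 43 Eomesa, 3 Smad2 and 3 input tags within 112 bp. Eomesa_peak4396 (chr3:56234337-56234447) reached 43 Eomesa, 3 Smad2 and 8 input tags within 111 bp. Both were narrow spikes, and the core width, which is the width of the Eomesa peak at 0.5 of its height, was 45 and 40 bp, close to the 39.0 bp that 1 Eomesa tag covers. Eomesa_peak3121 did not stand alone, with a gap of 82 bp to the next Eomesa peak. Smad2 reached 9 tags within 200 bp of its interval and 10 within 1 kb. Eomesa_peak1052 (chr13:26596648-26597053) was broader, with 40 Eomesa, 3 Smad2 and 10 input tags in 406 bp and a core width of 185 bp. Eomesa_peak457 (chr10:42114213-42114395) had 40 Eomesa, 3 Smad2 and 2 input tags, and is annotated within 10 kb of the start of a 5S_rRNA copy and of taar19e and taar19f, which encode trace amine receptors. It lies 92 bp from the next Eomesa peak. Eomesa_peak3463 (chr22:20591539-20591668) had 39 Eomesa, 1 Smad2 and 2 input tags. No Smad2 or input tag lay 300 to 1000 bp to either side of its summit, and it was the only one of the 319 peaks with flanks at 0 in both tracks, where 4 of all Eomesa peaks (0.0627%) were so.

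Of the 14 peaks with no Smad2 tag, Eomesa_peak1663 (chr16:8387799-8387958) was the tallest, with 26 Eomesa tags and no input tag either. Eomesa_peak3699 (chr23:35048703-35048958) followed with 22 Eomesa tags and no input tag in 256 bp. At these intervals, and at Eomesa_peak3274 (chr21:32664879-32665064, 16 Eomesa tags), neither the Smad2 nor the input track held a tag, so the lack of Smad2 came with a lack of input reads. The next 3 did have input. Eomesa_peak6217 (Zv9_NA101:24253-24381), on a sequence not placed on a chromosome, had 19 Eomesa and 4 input tags. Eomesa_peak2335 (chr19:168344-168469) had 18 Eomesa and 5 input tags, and Eomesa_peak5703 (chr8:9818449-9818621) had 17 Eomesa and 8 input tags. The last of these had input at 2.44 times the mean of its track and still no Smad2 tag.

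A pair of the 319 peaks had been taken to ChIP-qPCR in the study, and both were wide. The outcome of the qPCR is not used here. Eomesa_peak2624 (chr2:7800421-7800911) was 491 bp wide and reached 22 Eomesa, 3 Smad2 and 5 input tags. Its mean Smad2 signal was 1.45 times and its mean input signal 1.31 times the track mean, while Eomesa stood at 39.5 times. Eomesa_peak3484 (chr22:27559936-27560260) reached 31 Eomesa, 3 Smad2 and 4 input tags in 325 bp, with Smad2 at 1.06 times, input at 1.14 times and Eomesa at 40.8 times the track mean. Averaged over each of these intervals, Smad2 was about level with input. Outside them Smad2 was less even, reaching 8 tags within 1 kb of each. At Eomesa_peak3484 the 8 tags lay within 200 bp of the interval, above the limit of 3 set inside it. There, 400 bp before the summit, Smad2 held 8 tags and input 1. The nearest Smad2 peaks lay 1160 kb and 4999 kb away. Just outside the limit stood Eomesa_peak5571 (chr7:55568817-55569421), also taken to qPCR, with 24 Eomesa, 4 Smad2 and 8 input tags.

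**Figure D2:**
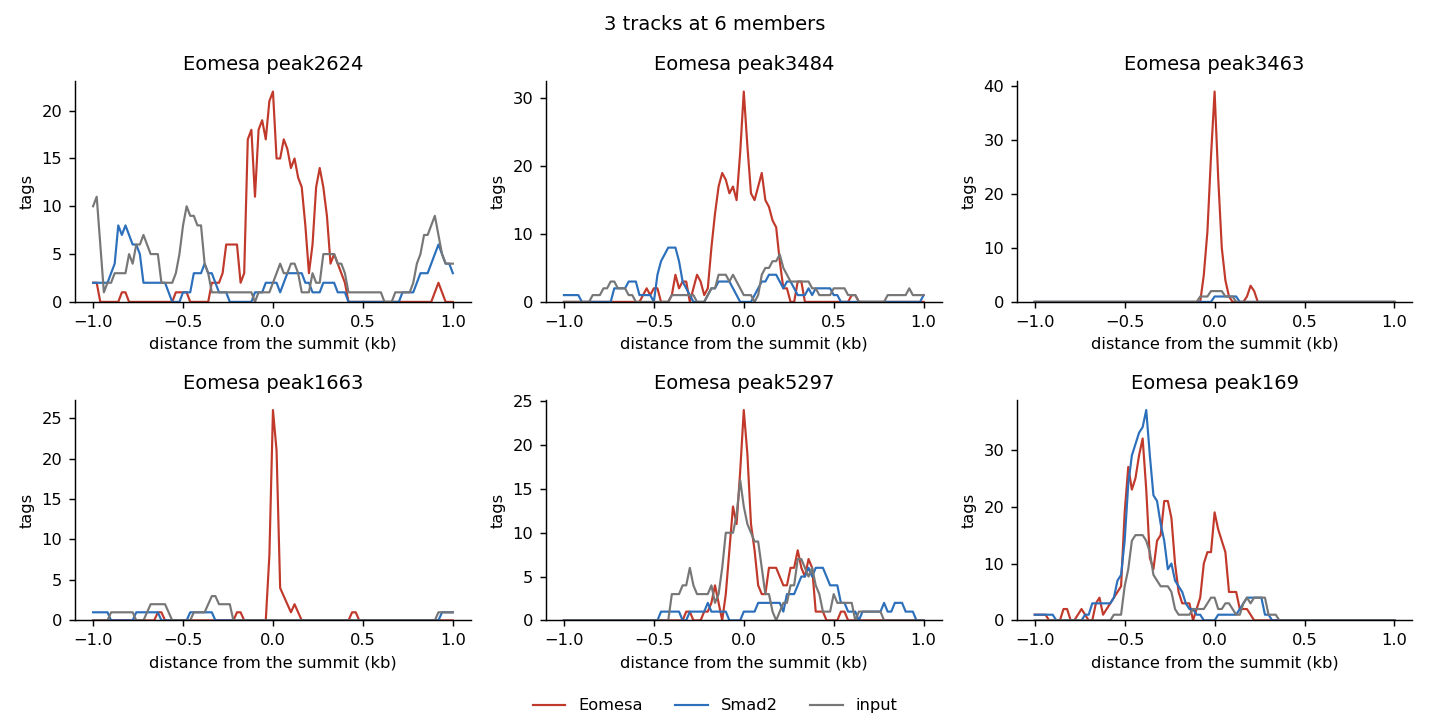
Eomesa, Smad2 and input tags (vertical axis, separate scale in each panel) from 1 kb before to 1 kb after the Eomesa summit (horizontal axis, kb) at 6 members. Eomesa tags cover fewer bases than Smad2 and input tags, so heights cannot be compared between Eomesa and the others. Eomesa_peak2624 and Eomesa_peak3484 are broad, Eomesa_peak3463 and Eomesa_peak1663 are spikes of 39 and 26 Eomesa tags with few other tags nearby, Eomesa_peak5297 has an input peak of 16 tags under the Eomesa summit, and Eomesa_peak169 lies beside a stretch that reaches 38 Smad2 tags.

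The Smad2 limit selected on the Smad2 track, and no limit was set on the input track. Input still had a part in the choice, since the authors called the peaks of both factors against it. Groups set apart by a shared base with a Smad2 peak are thus not independent of input. Summed over all bases of the 319 intervals, input stood at 1.76 times its genome-wide mean, with about 1853 tags in 78.1 kb. In the 2423 lone peaks of the window with 4 or more Smad2 tags it stood at 3.18 times, and in the 223 common peaks at 2.67 times. The input at the 319 peaks was 0.555 times that at the other lone peaks (95% exact interval from tag counts 0.529 to 0.581) and 0.662 times that at the common peaks (0.626 to 0.701). The peaks low in Smad2 were thus also low in input, although still above the genome mean. The input height had a median of 5 tags at the 319 peaks, with quartiles of 3 and 7 and a highest value of 16, against medians of 9 and 8 tags in the other groups. Input reached 2 times its mean at 118 of the 319 peaks (37.0%, interval 31.9 to 42.4%), at 70.9% of the other lone peaks and at 59.9% of all Eomesa peaks. The part that input had in the low Smad2 values was not tested.

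Smad2 at the 319 peaks stood at 1.10 times its own mean, so that Smad2 over input was 0.626 (0.574 to 0.681). The same ratio was 1.48 at the other lone peaks and 4.35 at the common peaks. Since Smad2 chose the groups, these values describe the choice. At 246 of the 319 peaks the input height was above the Smad2 height in tags (77.1%), against 46.9% of the other lone peaks and 46.6% of all Eomesa peaks. The Smad2 height that the choice limited enters this count, and the depths differ, with 12.6M Smad2 and 18.99M input tags. Scaled to 1M tags, the median input height was 0.263 and the Smad2 limit of 3 tags was 0.238. Eomesa over input was 15.9 (15.2 to 16.7) at the 319 peaks, 10.3 at the other lone peaks and 13.7 at the common peaks. The higher ratio at the 319 peaks came with less input and not with more Eomesa, which was 28.1 times its mean against 32.6 and 36.5 times. Eomesa exceeded input at least 4-fold at 317 of the 319 peaks (99.4%), at 95.6% of the other lone peaks and at 96.4% of the common peaks. It did so at 87.6% of all Eomesa peaks, which include peaks under the Eomesa limit. The Eomesa limit and the calling of peaks against input set these shares in part, so they too describe the choice.

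The input extremes show how far the peaks differed among themselves. Eomesa_peak5297 (chr6:55364366-55364490) held 16 input tags against 24 Eomesa and 1 Smad2 tag. Eomesa_peak375 (chr10:27881588-27881807) had 16 input, 19 Eomesa and 3 Smad2 tags. Eomesa_peak5411 (chr7:25647699-25647948) had 16 input, 16 Eomesa and 3 Smad2 tags. At these peaks the input track itself rose to 3.99 to 6.80 times its mean, while Smad2 stayed at 0.31 to 1.60 times. Eomesa stood at 24.7 to 45.5 times its own mean there, so equal heights in tags do not mean equal enrichment. At the other end 6 peaks had no input tag, the tallest being Eomesa_peak5556 (chr7:53593433-53593681) with 34 Eomesa and 2 Smad2 tags, followed by Eomesa_peak3059 (chr20:40859530-40859634) with 26 Eomesa and 1 Smad2 tag and by Eomesa_peak1663, described above. Eomesa height and input height showed almost no rank correlation (Spearman's rho 0.03 across peaks, which share 1 set of libraries and are not replicates, over the Eomesa range that the choice allows).

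Around the Eomesa summits the Smad2 track was flat, as the limit on its height inside the interval fixes at the centre. Averaged over the 319 peaks it was 1.19 times its mean within 50 bp of the summit, 1.15 times at 200 to 500 bp and 1.03 times at 1 to 2 kb. Over the same distances Eomesa fell from 38.8 to 5.81 to 1.33 times its mean. Input, on which no limit was set, was 2.02 times its mean within 50 bp and 1.02 times at 200 to 500 bp. A small input peak thus stood under the Eomesa summits. Within 50 bp input was 3.69 times its mean in the other lone peaks and 3.42 times in the common peaks. Smad2, by which these groups were set apart, was 5.63 and 17.5 times its mean there. Away from the summit, at 1 to 2 kb, the 3 groups lay between 1.01 and 1.37 times the mean in Smad2 and input. Single peaks were less even than the mean. Smad2 stayed at 3 tags or fewer within 200 bp of the interval at 197 of the 319 peaks (61.8%, against 8.92% of all Eomesa peaks) and within 1 kb at 61 (19.1%, against 2.85%). It reached 10 tags or more within 1 kb at 32 (10.03%, against 45.3%). These regions contain the interval itself, so the shares are in part set by the choice.

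**Figure D3:**
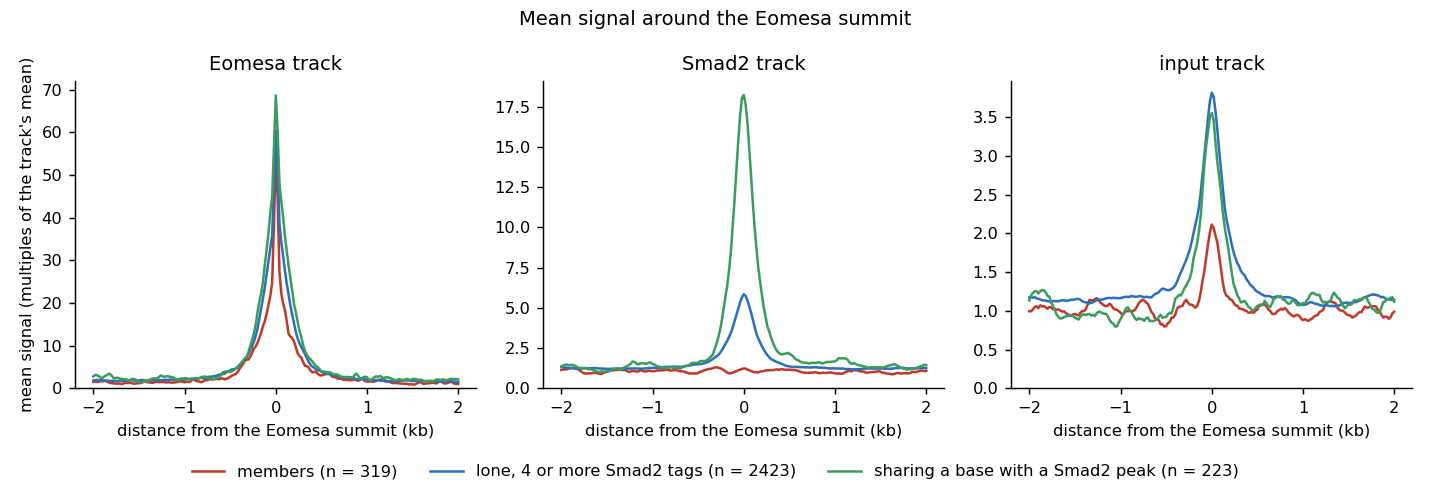
Mean Eomesa, Smad2 and input signal in multiples of each track's genome-wide mean (vertical axis, separate scale in each panel) against the distance from the Eomesa summit (horizontal axis, kb) for the members and 2 other groups of Eomesa peaks of the same width and Eomesa window. At the members Smad2 is 1.19 times its mean within 50 bp of the summit, against 5.63 times in the other lone peaks and 17.5 times in the common peaks, and the input peak is the lowest of the 3 groups.

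The Eomesa peaks themselves were sharper. This measure comes from the track that the choice used and is a description. The core width had a median of 70 bp at the 319 peaks, 115 bp at the other lone peaks and 135 bp at the common peaks. At 85 of the 319 (26.6%) it was at most 50 bp, little more than the length of 1 tag, against 8.87% of the other lone peaks and 18.1% of all Eomesa peaks. Among intervals of 200 to 400 bp it was at most 50 bp in 18.9% of 196 members and 8.46% of 1347 other lone peaks. The 85 sharp peaks held fewer Eomesa tags in the interval, with a median of 33.5 against 70.8 in the 95 peaks with a core width over 100 bp, although their heights were alike at 18 and 20 tags. Whether tags stacked at 1 position came from separate molecules was not tested. The flanks were sparsely covered at a few peaks. Input lay on under 20% of the bases 300 to 1000 bp from the summit at 19 of the 319 (5.96%), against 3.59% of all Eomesa peaks, and Smad2 over input was 0.623 in the other 300.

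**Figure D4:**
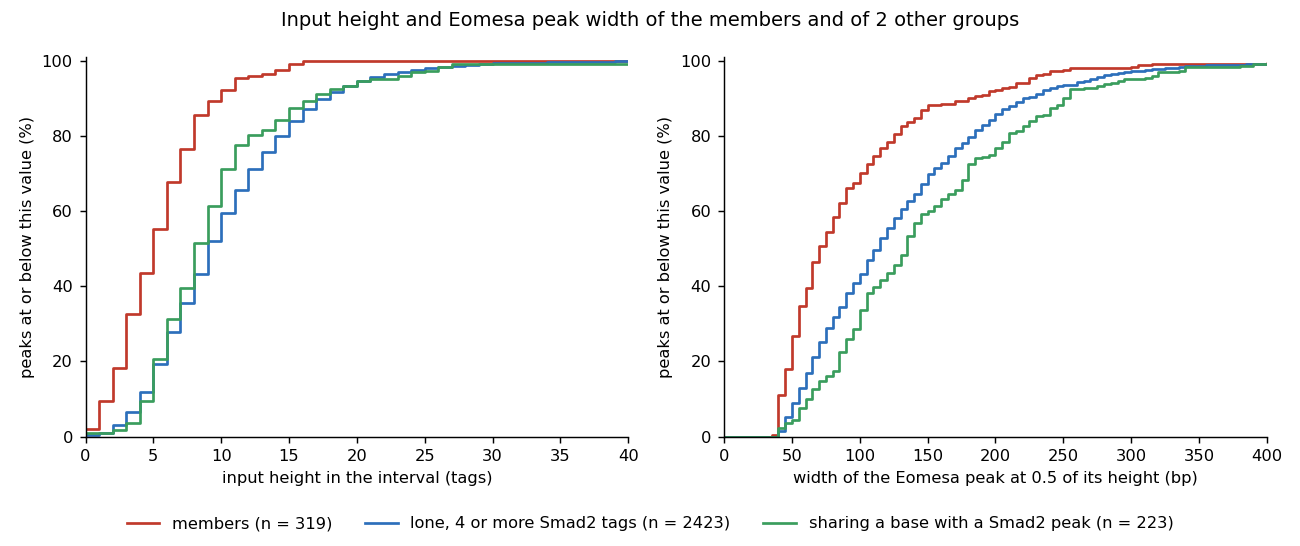
Share of peaks (%, vertical axes) at or below a given input height (tags, left) and a given width of the Eomesa peak at 0.5 of its height (bp, right), for the members and 2 other groups. The curves of the members lie to the left in both panels, with medians of 5 tags and 70 bp against 9 tags and 115 bp in the other lone peaks.

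Fewer of the 319 peaks than of the other lone peaks had a Smad2 peak nearby, and the choice sets this in part. Smad2 tags cover 132 bp, so a Smad2 peak close by can raise the Smad2 height in the interval above the limit. A Smad2 peak lay within 10 kb of 5 of the 319 (1.57%, interval 0.671 to 3.62%), against 6.11% of the other lone peaks (5.22 to 7.13%) and 10.5% of all Eomesa peaks, which include the common ones. Within 5 kb the shares were 1.25% of the 319 and 4.13% of the other lone peaks, and within 50 kb 5.64% and 12.8%. The median distance was 680 kb for the 307 peaks on a sequence with a Smad2 peak and 585 kb for the other lone peaks. The 5 near ones were looked at after their values were seen. Eomesa_peak169 (chr1:40218508-40218639), Eomesa_peak1937 (chr17:17781839-17782191) and Eomesa_peak3371 (chr22:2470398-2470517) lay only 76, 175 and 139 bp from one, with 38, 12 and 20 Smad2 tags within 1 kb, and are thus at the edge of Smad2-bound stretches. Eomesa_peak2493 lay 1.55 kb and Eomesa_peak2972 9.88 kb away, with 5 and 6 Smad2 tags within 1 kb.

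The nearness of other Eomesa peaks depended on the distance and on width. Another one lay within 10 kb of 95 of the 319 (29.8%, interval 25.03 to 35.0%), against 32.0% of the other lone peaks, 51.6% of the common peaks and 35.4% of all Eomesa peaks. Among intervals of 200 to 400 bp these shares were 23.0% of the members (interval 17.6 to 29.3%) and 31.8% of the other lone peaks (29.4 to 34.4%). For all Eomesa peaks of these widths the share was 30.2%. The intervals of the members and the other lone peaks only just miss each other here, and at all widths they overlap. Within 5 kb, at all widths, the shares were 25.7% of the members, 25.1% of the other lone peaks and 29.5% of all Eomesa peaks. Within 50 kb they were 47.3%, 55.1% and 56.1%. At 56 of the 319 (17.6%, interval 13.8 to 22.1%) the next peak began less than 250 bp away, against 10.2% of the other lone peaks and 16% of all Eomesa peaks. Of these neighbours 27 had 4 Smad2 tags or more and 29 had 3 or fewer, where 17.5% of all Eomesa peaks had 3 or fewer. The neighbours included 14 under 100 bp wide. Whether such a peak and its neighbour are pieces of 1 longer bound stretch was not tested. Smad2 over input was 0.620 in the 263 peaks without another Eomesa peak less than 250 bp away. With each other the 319 peaks formed 12 pairs with gaps of at most 10 kb and no larger group, and 5 of the pairs were split by less than 250 bp. The pair Eomesa_peak3905 and Eomesa_peak3906 (chr24:41724242-41725624) was separated by 517 bp, with 15 and 29 Eomesa tags and 3 Smad2 and 3 input tags in each.

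A few peaks shared their whole profile with another one. Mapping allowed a read 2 genomic positions, so repeated DNA can show the same reads at both places. Eomesa_peak4886 and Eomesa_peak4888, 2444 bp apart on chr5, were both 121 bp wide and both had 23 Eomesa, 2 Smad2 and 3 input tags. Eomesa_peak4672 on chr4 and Eomesa_peak4932 on chr5 were both 133 bp wide and mirrored each other, with 15 and 17 Eomesa tags, 2 Smad2 and 5 input tags in each. By a limit chosen after seeing the data, 6 of the 319 (1.88%) had such a twin among the Eomesa peaks, against 3.63% of the other lone peaks and 4.05% of all, so repeats of this kind were no more common here.

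Along the genome 306 of the peaks lay on chromosomes 1 to 25 and 13 on 12 sequences not placed on a chromosome (4.08%, against 2.56% of all Eomesa peaks). Every chromosome held some, from 5 on chromosome 23 to 23 on chromosome 5. As a share of the lone peaks of the window these were 5.56% (interval 2.40 to 12.4%) and 17.3% (11.8 to 24.6%), and these intervals overlap.

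Where the annotation could be read, none of the 89 peaks lay within 10 kb of the start of a developmental gene from 5 lists, which together hold 345 genes (Nodal pathway and mesendoderm, somite and presomitic mesoderm, ectoderm and neural, Fgf, Wnt, Bmp and Notch signalling, and T-box genes). A count of 0 of 89 allows a share of up to 3.37% by a floor of 3 counts and of 4.14% by the Wilson interval, and 4.4% of all readable Eomesa peaks were near such a gene. Among intervals of 200 to 400 bp it was 0 of 59, with a Wilson limit of 6.11%, against 3.93% of all readable Eomesa peaks. The 4.4% of Eomesa peaks at large thus lies above both limits for the 89 peaks. At matched width the 3.93% lies within the limit. Whether the share at the members is lower than at Eomesa peaks at large is therefore not settled at this number of peaks. Among the other lone peaks the count was 33 of 784 (4.21%, interval 3.01 to 5.85%), near 27 genes. These included the ectodermal and neural genes sox3, otx1a, six1a, foxi1 and gata2a, the somite genes dlc and her11, and gsc and foxh1 of the Nodal pathway. Among the common peaks it was 15 of 71 (21.1%, interval 13.2 to 32.0%), near flh, foxa, lhx1a, lft2, osr1, vox and vent, among others. For the ectoderm and neural list the counts were 0 of 89, 13 of 784 and 3 of 71, against 1.6% of all readable Eomesa peaks. For the Nodal and mesendoderm list they were 0, 7 and 10, against 1.35%. For both lists the share of all readable peaks lies below the limits for 0 of 89. These counts therefore do not set the members apart from Eomesa peaks at large. No T-box gene of the list was annotated to any readable Eomesa peak. The readable part covers 9 chromosomes, and how many of the 24 T-box genes lie on them is not given here. Lone Eomesa peaks near neural and mesodermal regulators were present in the readable part, and those carried 4 Smad2 tags or more or lay outside the width and Eomesa window. That only restates the count of 0 of 89 and does not tie such genes to Smad2 signal.

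A gene of any kind was annotated within 10 kb of 30 of the 89 peaks (33.7%, interval 24.7 to 44.02%), against 42.7% of all readable Eomesa peaks, 43.8% of the other lone peaks and 54.9% of the common peaks. The interval of the 89 peaks overlaps that of the other lone peaks. The genes named here are examples, and many of the 30 peaks lay near gene models without a name or near small RNA genes. The tallest peaks with a gene after Eomesa_peak457 were Eomesa_peak1710 (chr16:22466681-22467152, 37 Eomesa, 3 Smad2 and 5 input tags) near chn2, which encodes a GTPase-activating protein for Rac, and Eomesa_peak1728 (32 Eomesa, 2 Smad2 and 11 input tags) near an unnamed gene model. Eomesa_peak1624 near a copy of EIF4G1, a scaffold of translation initiation, had 30 Eomesa, 2 Smad2 and 5 input tags. Others lay near NDUFA11 of mitochondrial complex I, MTO1 and trmt5, which modify transfer RNAs, mtnr1al, a melatonin receptor gene, and erfl3, an Ets-type factor gene. Eomesa_peak169 and Eomesa_peak1937, both beside a Smad2 peak, were the only ones whose genes (dctd and irf2a, hhipl1 and ccdc85ca) also lay within 10 kb of a Smad2 peak. That made 2 of 89 (2.25%, interval 0.618 to 7.83%), against 6.76% of all readable peaks, which include the common ones. Among the other lone peaks it was 4.85% (interval 3.55 to 6.58%), and these intervals overlap.

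Genes for small RNAs were annotated at 7 of the 89 peaks (7.87%, interval 3.86 to 15.4%), against 3.6% of all readable Eomesa peaks and 3.32% of the other lone peaks (interval 2.27 to 4.81%). The intervals overlap, and this class of genes was picked after the annotation had been read. The 7 were 3 copies of 5S_rRNA, U6atac.2, dre-mir-2197.1 and both copies of dre-mir-132-2. The last are at Eomesa_peak423 (chr10:36664169-36664369) and Eomesa_peak425 (chr10:36847850-36848051), which each had 31 Eomesa and 8 input tags, with 2 and 1 Smad2 tags. The microRNA miR-132 is best known from neurons. Copies of a gene share sequence, so these 2 peaks may share reads.

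**Figure D5:**
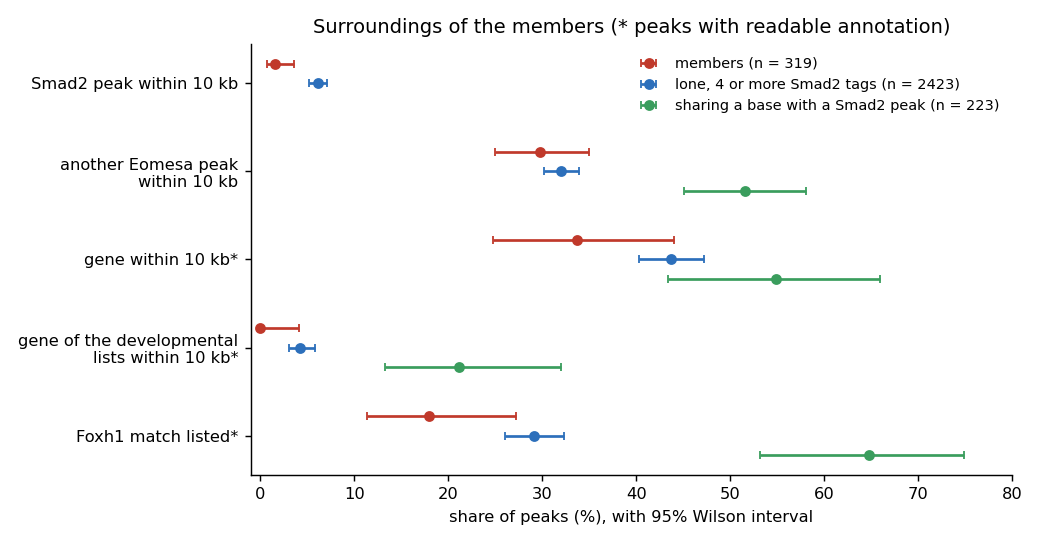
Share of peaks (%, horizontal axis) with the feature named on the vertical axis, with 95% Wilson intervals as bars, for the members and 2 other groups, where features with an asterisk use the 89, 784 and 71 peaks with readable annotation. The members have the lowest point for each feature, their interval lies apart from that of the other lone peaks for Smad2 peaks within 10 kb alone, and common peaks are left out of that feature because they have a Smad2 peak by definition. Nearness to a Smad2 peak is in part set by the choice.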

How the data were processed

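ChIP-seq had been performed on 6 samples, grouped by title as Smad2, Eomesa and input, 2 each. The authors mapped reads to Zv9 with Bowtie, allowing up to 2 places per read, called peaks with MACS against paired input and kept those found in both reactions. Versions are not given in the sources used here. The deposited lists hold intervals and their width. The deposited tracks hold signal, the number of shifted tags over each 5-bp step without correction for depth. Whether tracks merge both reactions, and which input was used, is not stated. A tag covered 39.0 bp (Eomesa) or 132 bp (Smad2, input), giving 12.3M (Eomesa), 12.6M (Smad2) and 18.99M (input) tags. Extended tags blur the Smad2 and input tracks more, and heights in these tracks are not on the scale of Eomesa heights.

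The peaks and gene lists were chosen with earlier results of these data known. Heights are the highest value in the interval. Group signal is the mean over all bases divided by the track's mean over 1412 Mb. Ratios carry exact conditional intervals and shares Wilson intervals, which treat tags and peaks as independent. No test was run over peaks. Named peaks are those taken to ChIP-qPCR, the 5 tallest, the 5 tallest with 0 Smad2 tags, the 3 highest and 3 lowest in input, and any near a listed gene. Other named peaks were chosen after their values were seen. Gene and Foxh1 entries come from the readable part of the study's annotation and sequences from the same table. Flanks, core widths and repeated profiles (bases within about 150 bp of the summit, profiles that differ by at most 10% of their joint sum in every track) were added after seeing the data. T-box motifs were not analysed here. Python 3.11.15 with numpy and scipy was used, and the code was tested on simulated data.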

Additional observations from a re-analysis of the deposited data

How the results depend on the processing

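No paired analysis was possible because the deposited tracks hold 1 value per group and no result comes from a test across samples. The number of peaks depends on the Smad2 limit. It was 158 at a limit of 2 tags, 504 at 4 tags and 197 where Smad2 was read within 200 bp of the interval, against 319. Smad2 over input, 0.626 as reported, was 0.437 and 0.714 at limits of 2 and 4 tags and 0.747 over 500 bp around the summit. Each of these keeps a limit on Smad2 tags in the interval, so the low ratios describe the choice. Eomesa over input, 15.9 as reported, was 14.7 at a limit of 4 tags and 13.2 over 500 bp. Input against the other lone peaks, 0.555 as reported, was 0.527 by the mean of the heights and 0.586 at widths of 200 to 400 bp. A Smad2 peak lay within 50 kb of 5.64% of the peaks. Another Eomesa peak lay within 50 kb of 47.3%, against 55.1% of the other lone peaks and 56.1% of all Eomesa peaks. One of at least 100 bp lay within 10 kb of 24.1%, and this share was not computed for the other groups. With the limit of 2 tags a Foxh1 match was listed at 9.76% of readable peaks. The other 30 of 44 values computed for 8 results stayed within the reported interval, or within 1.5 times the count. Of the 44, 16 were chosen after seeing the data, among them those without peaks beside another Eomesa peak and without peaks with sparse flanks. The planned T-box motif share was not run. With 2 or 3 tags per interval, 1 tag decides whether a peak meets the Smad2 limit. Whether weak Smad2 binding could be detected at this depth was not tested.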
